A study of Homo sapiens with 18 samples.

Results

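The SOX genes described here were the 10 rows of the expression table named SOX2, SOX2-OT, SOX4, SOX6, SOX7, SOX9, SOX12, SOX13, SOX15 and SOX21, chosen by symbol out of 40266 gene symbols. RNA of 18 cultures was sequenced, 3 from each of 6 groups of untreated cells. Panc1, a human pancreatic ductal adenocarcinoma (PDAC) line from a primary tumour, served the study as the mesenchymal-like model, and Panc89, a PDAC line from a lymph node metastasis, as the epithelial model. Each line was sequenced as parental cells, as Holoclone cells, the cancer stem cell (CSC) variant, and as Paraclone cells, the non-CSC variant. Each Holoclone and Paraclone variant was grown from 1 single-cell clone, and the 3 replicates of a group were different passages, so p-values measure the spread between passages and a clone cannot be told apart from the variant it stands for. Levels are given in TPM (transcripts scaled to a fixed total per library), a measure per transcript length that allows genes to be compared, and fold changes on the log2(TPM + 1) scale, which understates the change of genes near 0.

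SOX proteins are transcription factors that bind DNA through an HMG box related to that of SRY, bend it, and act on their targets together with partner factors. They fall into subgroups: SOX2 is an activator and SOX21 a repressor of the B subgroup, SOX4 and SOX12 belong to C, SOX6 and SOX13 to D, SOX9 to E, SOX7 to F and SOX15 to G. SOX2 maintains pluripotent and neural stem cells and is used as a CSC marker in carcinomas, and SOX9 marks pancreatic progenitors and duct cells. SOX2-OT is a long non-coding RNA whose gene surrounds SOX2.

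SOX2 and SOX21 had the largest fold changes of the 10 genes between the Panc89 Holoclone and Paraclone cells, and their promoters are shown for that reason. The windows are the 250 bases upstream of the RefSeq start on GRCh38.p14, chr3:181711675-181711924 on the plus strand for SOX2 and chr13:94712546-94712795 on the minus strand for SOX21. Capitals mark matches to 4 motifs searched on both strands: the octamer core ATGCAAA, bound by POU factors, the SOX core in the forms ACAAAG and ACAATG, and the CCAAT box, which reads ATTGG in reverse.
SOX2: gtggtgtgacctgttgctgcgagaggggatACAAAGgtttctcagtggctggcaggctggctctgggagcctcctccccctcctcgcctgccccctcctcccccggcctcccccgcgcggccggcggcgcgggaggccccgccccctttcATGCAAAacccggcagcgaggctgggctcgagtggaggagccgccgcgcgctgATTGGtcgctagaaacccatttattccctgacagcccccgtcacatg
SOX21: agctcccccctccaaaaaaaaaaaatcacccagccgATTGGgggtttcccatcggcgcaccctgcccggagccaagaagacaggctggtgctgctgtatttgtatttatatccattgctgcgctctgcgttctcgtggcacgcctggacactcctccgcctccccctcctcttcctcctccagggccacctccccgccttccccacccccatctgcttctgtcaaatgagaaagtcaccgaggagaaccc
The SOX2 window held ACAAAG from position -220, ATGCAAA from -100 and ATTGG from -47 relative to the start. In the SOX21 window the single match was ATTGG at -214. Among the same windows of 35114 promoters, 3.94% held the octamer core, 13.7% ACAAAG or its reverse, 9.29% ACAATG or its reverse and 32.0% the CCAAT box. The GC content was 68.8% for SOX2 and 58.8% for SOX21, against a median of 58.0% over all promoters. A match is a description of letters and was not tested for binding.

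All 10 SOX genes passed the filter of at least 1 TPM in at least 3 libraries and were among the 16093 genes tested. SOX4, SOX9, SOX12 and SOX13 reached 1 TPM in all 18 libraries, SOX21 in 17, SOX7 and SOX15 in the 9 Panc89 libraries, SOX2 and SOX6 in 6, and SOX2-OT in 3. The 9 protein-coding members together summed to 180.5 to 221.6 TPM in the Panc1 libraries and to 241.4 to 424.8 TPM in the Panc89 libraries, without overlap between the lines. The sum averaged 203 ± 21.0 TPM (SD, n = 3) in parental Panc1, 201 ± 8.97 in Holoclone and 195 ± 17.0 in Paraclone cells of Panc1. In Panc89 it averaged 261 ± 7.56 in parental, 366 ± 57.3 in Holoclone and 284 ± 40.1 in Paraclone cells. The lines filled this sum with different genes. SOX9 was the most abundant member in all 9 Panc1 libraries, with 38.1% to 54.3% of the sum. SOX7 was the most abundant in 8 of 9 Panc89 libraries, and SOX21 with 22.1% in the other, Holoclone replicate 1.

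**Figure D1:**
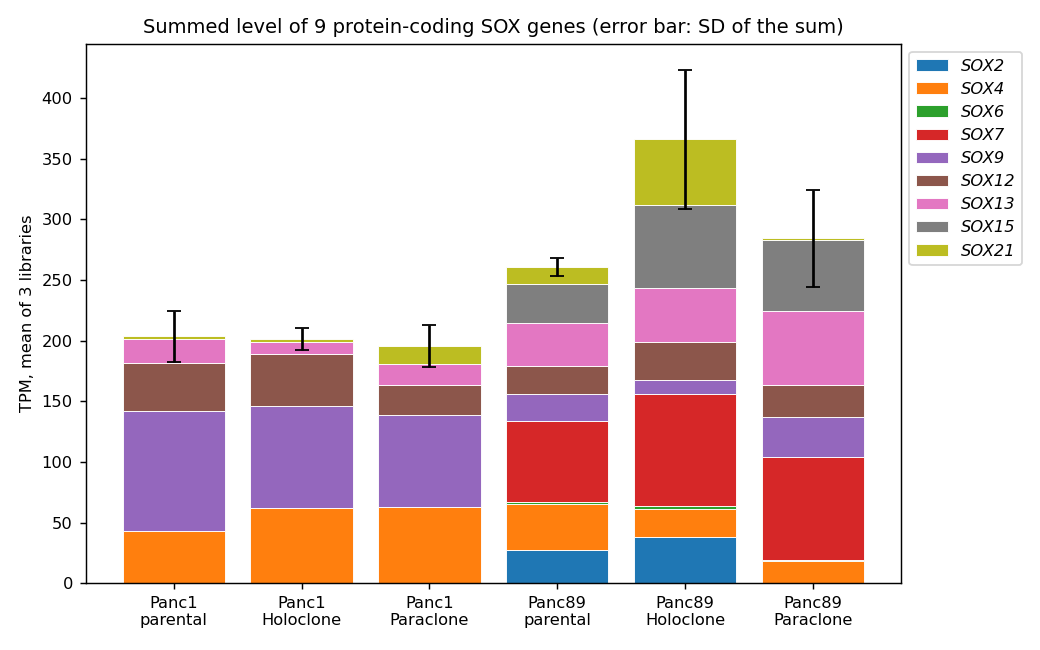
Stacked bars of the mean TPM of the 9 protein-coding SOX genes in each of the 6 groups, with the SD of the sum over 3 libraries as error bar. The Panc1 bars are mostly SOX9, SOX4 and SOX12, and the Panc89 bars are led by SOX7, with SOX15 and SOX13 in all 3, and with SOX2 and SOX21 filling more of the Holoclone bar (366 TPM) than of the Paraclone bar (284 TPM).

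SOX2 (chromosome 3, 181711925 to 181714436, plus strand, GRCh38) has 1 exon, which lies inside an intron of SOX2-OT on the same strand, with no shared exonic base. In Panc89 Holoclone cells the 3 libraries held 64.3, 32.5 and 17.3 TPM of SOX2, and in parental Panc89 30.7, 18.1 and 32.9 TPM. Panc89 Paraclone cells held 0.252, 0.909 and 0.981 TPM. The Holoclone and parental ranges of Panc89 overlapped each other, and both lay far above the Paraclone range. In Panc1 the levels were close to 0: the parental libraries held 0, 0.0143 and 0 TPM, the Holoclone libraries 0.202, 0.279 and 0.376 TPM, and the Paraclone libraries 0.0184, 0.0523 and 0 TPM. The Panc1 Holoclone range lay above both other Panc1 groups and overlapped the low end of Panc89 Paraclone cells. Ordered by mean log2(TPM + 1), the groups were Panc89 Holoclone (5.10 ± 0.92, SD, n = 3), Panc89 parental (4.77 ± 0.45), Panc89 Paraclone (0.75 ± 0.37), Panc1 Holoclone (0.36 ± 0.10), Panc1 Paraclone (0.03 ± 0.04) and Panc1 parental cells (0.01 ± 0.01). Neighbours in that order overlapped except at the steps from Panc89 parental to Panc89 Paraclone and from Panc1 Holoclone to Panc1 Paraclone cells.

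**Figure D2:**
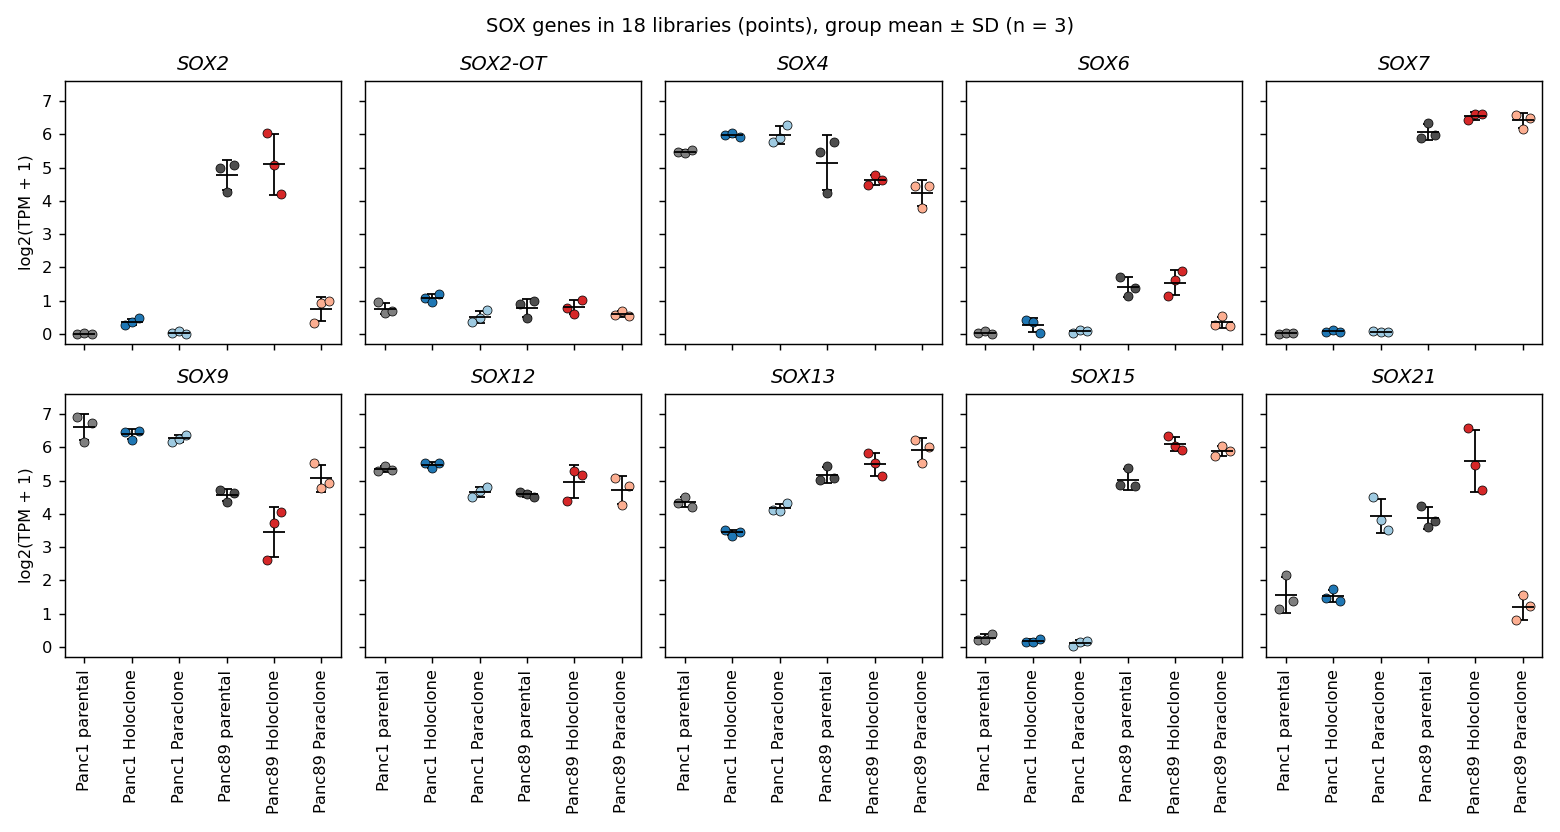
Level of each of the 10 SOX genes as log2(TPM + 1) on the vertical axis in every library (points), by group on the horizontal axis, with group mean ± SD (n = 3). SOX2 sits at 4.20 or higher in the parental and Holoclone libraries of Panc89 and below 1 in all others, while SOX7 and SOX15 separate the lines without overlap.

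The question of how the 2 parental lines differ was asked first. SOX2, SOX6, SOX7, SOX13, SOX15 and SOX21 were higher in parental Panc89 and SOX9 and SOX12 were higher in parental Panc1. The count of 6 of 10 higher and 2 lower stands against 27.5% and 38.5% of all genes tested, a comparison in which most of the transcriptome differed. SOX2 was higher by 4.77 on the log2 scale (SE 0.34, adjusted p = 4.85e-09, limma) and kept this side in all 12 alternative analyses of the same comparison, at 4.61 to 7.98.

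SOX7, an F-subgroup factor best known from endothelial and cardiovascular development, and SOX15, the G-subgroup factor known from muscle precursors and placenta, were nearly confined to Panc89. SOX7 on chromosome 8 held 57.9 to 79.5 TPM in parental Panc89 and 0 to 0.0221 TPM in parental Panc1, a difference of 6.04 (SE 0.13, adjusted p = 6.32e-15). Of its exonic bases, 39.4% are shared on the same strand with PINX1, a telomerase inhibitor gene, so the division of reads between them is an estimate. PINX1 was present in both lines, at 6.30 to 7.05 TPM in parental Panc1 and 13.8 to 17.2 TPM in parental Panc89. SOX15 (chromosome 17, 7588178 to 7590094, minus strand) held 27.6 to 40.7 TPM in parental Panc89 and 0.144 to 0.315 TPM in parental Panc1, a difference of 4.77 (SE 0.15, adjusted p = 4.15e-13). Neither gene had a Panc1 library above its lowest Panc89 library.

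The D-subgroup members SOX6 and SOX13, factors without a transactivation domain of their own, were also higher in parental Panc89. SOX6 (chromosome 11, 15966449 to 16739591, minus strand), known from cartilage, muscle and erythroid cells, held 2.28, 1.19 and 1.61 TPM in parental Panc89 and at most 0.0694 TPM in parental Panc1, a log2 difference of 1.37 (SE 0.19, adjusted p = 1.02e-05). For SOX13 (chromosome 1, 204073115 to 204127743, plus strand), known from T cell and neural lineages, the levels were 31.1 to 42.6 TPM against 17.5 to 21.7 TPM, a difference of 0.83 (SE 0.19, adjusted p = 0.00118).

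SOX9 (chromosome 17, 72121020 to 72126416, plus strand) went the other way. It held 120.3, 70.6 and 105.0 TPM in parental Panc1 and 25.0, 19.4 and 23.6 TPM in parental Panc89, lower in Panc89 by 2.05 on the log2 scale (log2 fold change -2.05, SE 0.30, adjusted p = 1.71e-05). SOX12 (chromosome 20, 325552 to 330224, plus strand), a weaker activator of the C subgroup, had 37.8 to 42.5 TPM in parental Panc1 and 21.9 to 24.3 TPM in parental Panc89, a log2 difference of -0.76 (SE 0.21, adjusted p = 0.00573) that missed the threshold with median-of-ratios scaling (-0.52, adjusted p = 0.0897). The other C-subgroup member, SOX4 (chromosome 6, 21593751 to 21598619, plus strand), a factor induced by TGF-beta in pancreatic cancer cells, overlapped between the lines (43.3, 17.7 and 53.0 TPM in Panc89, 41.9 to 45.1 TPM in Panc1), with a 95% interval of the difference from -0.95 to 0.30. SOX2-OT did not follow SOX2: its parental levels were 0.392 to 0.978 TPM in Panc89 and 0.558 to 0.942 TPM in Panc1, a difference of 0.02 (95% interval -0.32 to 0.37, adjusted p = 0.909).

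In Panc89, CSC-like Holoclone and Paraclone cells differed most in the B-subgroup genes. SOX2, SOX21 and SOX6 were higher in Holoclone and SOX9 was higher in Paraclone cells, 3 of 10 higher and 1 lower, against 22.4% and 13.3% of all genes tested. With upper quartile scaling, which moved the median of all genes from 0.09 to 0.01, the background became 19.1% higher and 17.3% lower. The log2 fold change of SOX2 was 4.35 (SE 0.34, adjusted p = 1.02e-07). SOX21 (chromosome 13, 94709622 to 94712545, minus strand), a counterpart of SOX2 in neural differentiation, held 93.8, 43.3 and 25.1 TPM in Holoclone and 0.741, 1.95 and 1.32 TPM in Paraclone cells. Its log2 fold change was 4.39 (SE 0.39, adjusted p = 5.37e-07), close in size to that of SOX2. SOX6 held 1.18, 2.05 and 2.70 TPM in Holoclone and 0.198, 0.452 and 0.178 TPM in Paraclone cells, higher by 1.20 on the log2 scale (SE 0.19, adjusted p = 0.000153). SOX9 held 5.15, 12.2 and 15.7 TPM in Holoclone and 44.8, 26.2 and 29.3 TPM in Paraclone cells, which gave -1.60 on the log2 scale (SE 0.30, adjusted p = 0.000592). For each of these genes every Holoclone library lay on one side of every Paraclone library.

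Paraclone replicate 2 of Panc89 stood apart: over all genes its mean correlation with its own group was 0.962, below its 0.966 with a parental library. Without it the log2 fold changes were 4.44 for SOX2, 4.57 for SOX21, 1.29 for SOX6 and -1.75 for SOX9, all past the threshold. SOX13, at 34.0 to 55.7 TPM in Holoclone and 45.3 to 73.8 TPM in Paraclone cells, had -0.43 (SE 0.19, adjusted p = 0.0903), which passed at -0.63 without that library (adjusted p = 0.0135), at -0.60 without Holoclone replicate 1 (adjusted p = 0.0254) and at -0.54 with upper quartile scaling (adjusted p = 0.0422).

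SOX7 and SOX15, the genes nearly confined to Panc89, were not called between its variants. SOX7 held 84.3 to 97.5 TPM in Holoclone and 71.0 to 95.4 TPM in Paraclone cells (95% interval of the log2 difference -0.15 to 0.42). SOX15 held 60.1 to 79.4 and 52.1 to 64.8 TPM (95% interval -0.11 to 0.55). SOX12, SOX4 and SOX2-OT also missed the threshold, with intervals from -0.23 to 0.69, from -0.23 to 1.02 and from -0.15 to 0.54. The SOX4 ranges did not overlap (21.1 to 26.3 against 12.6 to 20.9 TPM), but the difference of 0.40 was within the spread of that gene over all groups (adjusted p = 0.322).

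In Panc1 the pattern of the same comparison was another one. SOX2-OT and SOX12 were higher in Holoclone cells and SOX21 and SOX13 were higher in Paraclone cells, 2 higher and 2 lower of 10, against 27.4% and 9.97% of all genes tested. That background depends on the scaling: the median of all genes was 0.19, and with upper quartile scaling, which brought it to 0.01, 16.4% of genes were higher and 15.6% lower. SOX21 held 1.78, 2.33 and 1.61 TPM in the Holoclone libraries of Panc1 and 21.5, 13.2 and 10.4 TPM in its Paraclone libraries. Its log2 fold change was -2.41 (SE 0.39, adjusted p = 0.000198), with -2.86 to -2.13 over 12 alternatives, all past the threshold. SOX13 held 9.18 to 10.4 TPM in Holoclone and 15.9 to 18.9 TPM in Paraclone cells, or -0.73 on the log2 scale (SE 0.19, adjusted p = 0.00676).

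SOX12 held 44.7, 40.6 and 44.8 TPM in the Panc1 Holoclone libraries and 21.5, 24.6 and 27.0 TPM in the Paraclone libraries, higher by 0.81 (SE 0.21, adjusted p = 0.00736). The lncRNA SOX2-OT (chromosome 3, 180989762 to 181836880, plus strand) held 1.09, 0.941 and 1.31 TPM in Holoclone and 0.288, 0.387 and 0.646 TPM in Paraclone cells, higher by 0.56 (SE 0.16, adjusted p = 0.0135). SOX12 missed the threshold under both other scalings, at 0.57 with upper quartile (adjusted p = 0.094) and 0.54 with median-of-ratios scaling (adjusted p = 0.125). SOX2-OT missed it with median-of-ratios scaling (0.43, adjusted p = 0.0513), and also without Holoclone replicate 3 (adjusted p = 0.0577) or Paraclone replicate 1 (adjusted p = 0.0523).

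SOX2 itself was not called between the Panc1 variants, at 0.33 on the log2(TPM + 1) scale (95% interval -0.39 to 1.04, adjusted p = 0.492), although the 3 Holoclone libraries lay above the 3 Paraclone libraries. The outcome depends on how values near 0 are treated and on which groups set the spread. In the main fit the spread was shared over all groups, with an SD of 0.92 in Panc89 Holoclone cells. The Panc1 Holoclone and Paraclone cells had 0.10 and 0.04. With a pseudocount of 0.1 the difference was 1.64 (adjusted p = 0.0114), and in a fit of the 2 groups alone 0.33 was past the threshold (adjusted p = 0.00936). The Panc1 Holoclone levels were at most 0.376 TPM, and the depth behind them is unknown. SOX9, the most abundant member in Panc1, held 73.6 to 89.8 TPM in Holoclone and 71.2 to 82.0 TPM in Paraclone cells (95% interval of the difference -0.50 to 0.76), and SOX4 59.0 to 64.3 and 53.1 to 76.5 TPM (-0.63 to 0.61). SOX6, SOX7 and SOX15 were at most 0.325, 0.0914 and 0.315 TPM in any Panc1 library.

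**Figure D3:**
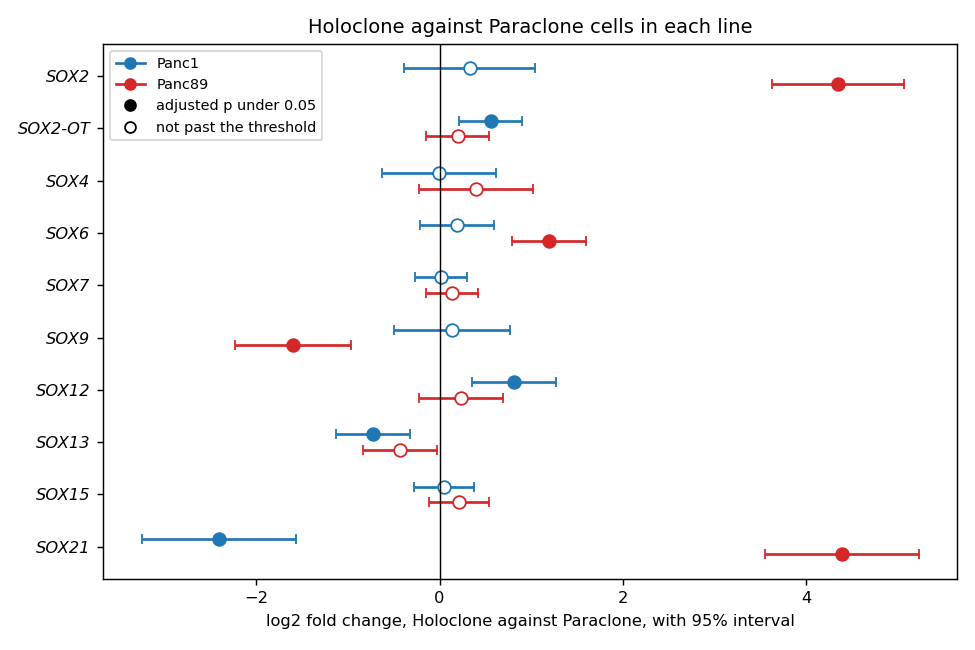
Log2 fold change of Holoclone against Paraclone cells (horizontal axis) for each SOX gene in Panc1 (blue) and Panc89 (red), with 95% intervals, and filled points where the adjusted p was under 0.05. SOX21 lies at -2.41 in Panc1 and at 4.39 in Panc89, SOX2 at 4.35 in Panc89, and most other points lie within 1 of 0.

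Whether the Holoclone against Paraclone change itself differed between the lines was tested as an interaction. It was higher in Panc89 for SOX2, SOX6 and SOX21 and lower for SOX9, 3 higher and 1 lower of 10 members against 14.8% and 20.4% of all genes tested. The difference was 6.80 for SOX21 (SE 0.56, adjusted p = 2.39e-07), whose change had opposite signs in the lines. It was 4.02 for SOX2 (SE 0.48, adjusted p = 1.04e-05) and -1.73 for SOX9 (SE 0.42, adjusted p = 0.00453). For SOX6 it was 1.01 (SE 0.27, adjusted p = 0.00844), and 1.62 with a pseudocount of 0.1, where it missed the threshold (adjusted p = 0.0882). The calls of SOX12 and SOX2-OT in Panc1 are not shown to differ between the lines, with differences of -0.58 (adjusted p = 0.156) and -0.36 (adjusted p = 0.247), although SOX12 passed without Panc89 Paraclone replicate 2 (-0.81, adjusted p = 0.0299).

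**Figure D4:**
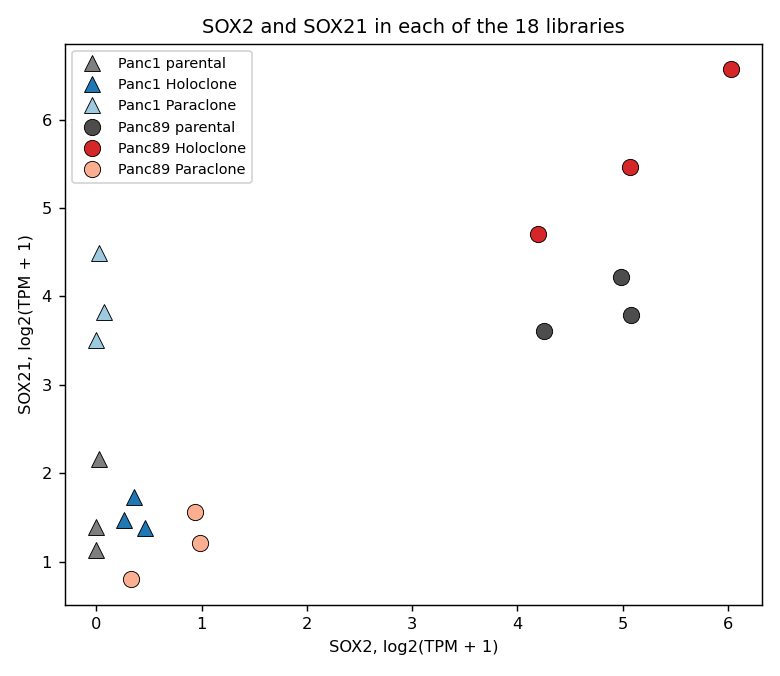
SOX21 (vertical axis) against SOX2 (horizontal axis), both as log2(TPM + 1), in each of the 18 libraries, with triangles for Panc1 and circles for Panc89. Panc89 libraries run from low in both genes to high in both, and the Panc1 Paraclone libraries have SOX21 at 3.51 to 4.49 with SOX2 at or below 0.07.

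SOX21 did not order the groups by line. By mean log2(TPM + 1) it ran from Panc89 Holoclone (5.58 ± 0.93) over Panc1 Paraclone (3.94 ± 0.50) and Panc89 parental (3.87 ± 0.32) to Panc1 parental (1.56 ± 0.53), Panc1 Holoclone (1.53 ± 0.18) and Panc89 Paraclone cells (1.19 ± 0.38). Panc1 Paraclone and Panc89 parental cells overlapped, as did the last 3 groups. SOX21-AS1, an antisense RNA gene that shares no exonic base with SOX21 and was singled out after its values were seen, was lower in Panc1 Holoclone than Paraclone cells by 0.99 on the log2 scale (-0.99, adjusted p = 0.000257) and higher in Panc89 Holoclone than Paraclone cells (1.97, adjusted p = 2.91e-07). A strand setting of the quantification is not given in the sources used here.

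Equal variants of the 2 lines were compared next. Holoclone cells of Panc89 had more SOX2 (4.74), SOX6 (1.28), SOX7 (6.47), SOX13 (2.05), SOX15 (5.93) and SOX21 (4.05) than those of Panc1, and less SOX4 (-1.35), SOX9 (-2.93) and SOX12 (-0.51), 6 higher and 3 lower against 29.3% and 36.4% of all genes tested. SOX12 was at the threshold (adjusted p = 0.0468), and left it without Panc89 Holoclone replicate 1 (-0.23, adjusted p = 0.281), without any 1 of the 3 Panc1 Holoclone libraries (adjusted p = 0.0628 to 0.103) and under both other scalings. Paraclone cells of Panc89 had more SOX7 (6.35), SOX13 (1.76) and SOX15 (5.76) and less SOX4 (-1.76), SOX9 (-1.20) and SOX21 (-2.75) than those of Panc1, 3 higher and 3 lower against 30.2% and 30.4%. SOX2 was at 0.71 there (95% interval -0.0012 to 1.43, adjusted p = 0.0784), with the ranges apart, and passed without Panc89 Paraclone replicate 1 (0.93, adjusted p = 0.0435), with a pseudocount of 0.1 (2.58, adjusted p = 0.000169) and with median-of-ratios scaling (0.76, adjusted p = 0.0416). The SOX4 difference between the lines was thus past the threshold in the clones and not in the parental cells, a contrast that was not itself tested.

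Against their parental cells, the Panc89 variants moved SOX2 and SOX21 differently. In Panc89 Paraclone cells SOX2 fell by 4.03 on the log2 scale (-4.03, adjusted p = 7.69e-07), SOX21 by 2.68 (-2.68, adjusted p = 0.00018), SOX6 by 1.07 (-1.07, adjusted p = 0.000867) and SOX4 by 0.93 (-0.93, adjusted p = 0.0355), and SOX13 (0.75, adjusted p = 0.0107) and SOX15 (0.86, adjusted p = 0.000916) rose, against 10% of all genes lower and 9.37% higher. The SOX4 call, with overlapping ranges, was lost without any 1 of 4 libraries, namely parental replicates 1 and 3 and Paraclone replicates 1 and 2 (adjusted p = 0.0511 to 0.189), and that of SOX13 without parental replicate 1 (0.66, adjusted p = 0.0564) or Paraclone replicate 1 (0.60, adjusted p = 0.0627). In Panc89 Holoclone cells SOX2 was not called against parental cells (0.32, 95% interval -0.39 to 1.04), with -0.14 without Holoclone replicate 1. SOX21 rose by 1.71 (SE 0.39, adjusted p = 0.00475), SOX15 by 1.08 (adjusted p = 9.8e-05) and SOX7 by 0.48 (adjusted p = 0.015), and SOX9 fell by 1.09 (-1.09, adjusted p = 0.0134), 3 higher and 1 lower against 16.1% and 8.61%. SOX7 kept its call in only 4 of 12 alternatives. It was lost without parental replicate 1 or 3 or Holoclone replicate 2 or 3 (adjusted p = 0.0524 to 0.0835), with a pseudocount of 0.1 (adjusted p = 0.0746), with both other scalings (adjusted p = 0.0971 and 0.115) and in a fit of the 2 groups alone (adjusted p = 0.061). SOX9 lost its call without parental replicate 1 (-1.02, adjusted p = 0.0508) and in the fit of the 2 groups alone (adjusted p = 0.104), and SOX21 in that fit (adjusted p = 0.0598). In Panc89 the parental mean of SOX2, SOX21, SOX6, SOX9 and SOX2-OT lay between those of the 2 clones.

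The Panc1 variants were set against their parental cells in the same way. The Paraclone cells had more SOX21 (2.38, SE 0.39, adjusted p = 0.000375) and less SOX12 (-0.68, adjusted p = 0.0261), 1 higher and 1 lower against 7.31% and 21.3% of all genes tested, and the SOX12 call was lost without any 1 of 5 libraries (adjusted p = 0.0543 to 0.082), all but Paraclone replicate 3. Holoclone cells differed in SOX13 alone among members (-0.91, adjusted p = 0.00501), 0 higher and 1 lower against 5.87% and 5.06%. Parental Panc1 cells held 1.19, 3.47 and 1.62 TPM of SOX21, overlapping the Holoclone range, so that within Panc1 the Paraclone cells were the variant that stood out for this gene.

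The libraries within Panc89 Holoclone cells spread widely for SOX2, SOX21 and SOX9. Replicate 1 had the highest SOX2 and SOX21 and the lowest SOX9 (64.3, 93.8 and 5.15 TPM), and replicate 3 the lowest SOX2 and SOX21 and the highest SOX9 (17.3, 25.1 and 15.7 TPM). SOX6, also higher in Holoclone than Paraclone cells, ran against SOX2, with 1.18 TPM in replicate 1 and 2.70 TPM in replicate 3. SOX12 was lowest in replicate 1 as well (20.0, 38.5 and 35.3 TPM). SOX7 and SOX15 varied less in these libraries, from 84.3 to 97.5 and from 60.1 to 79.4 TPM. Over the 9 Panc89 libraries, Pearson's r with SOX2 was 0.94 for SOX21, rank 92 among the 10914 genes with a group mean of at least 10 TPM in some group, and -0.75 for SOX9, rank 10116. Over all 18 libraries it was 0.74 for SOX21, rank 1141, and -0.89 for SOX9, rank 10862. The SOX21 value depended on the measure: with a pseudocount of 0.1 it was 0.65 (rank 2344), and Spearman's rho, taken on ranks, was 0.51 (rank 3198). For SOX9 these were -0.91 and -0.86. Over the 9 Panc89 libraries Spearman's rho was 0.82 for SOX21 (rank 316) and -0.78 for SOX9 (rank 10726). These values describe libraries that share lines and clones, and most of the span comes from the groups.

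The genes whose levels were most like SOX2 over the 18 libraries were HCAR2, a nicotinic acid and beta-hydroxybutyrate receptor (r = 0.991), COX7B2 (0.983), a subunit isoform of cytochrome c oxidase, C5orf38 (0.981), PELI2 (0.977), a ubiquitin ligase of Toll-like receptor signalling, and SEMA4A (0.976), a semaphorin. HCAR2 has a near-identical neighbour, HCAR3, so its value is uncertain. By Spearman's rho these 5 genes ranked lower, from 47 for PELI2 to 833 for SEMA4A. All 5 were at most 0.23 in mean log2(TPM + 1) in every Panc1 group. They were at 3.18 to 4.13 in parental Panc89, 4.29 to 4.79 in Panc89 Holoclone and 0.54 to 1.16 in Panc89 Paraclone cells. Over the 9 Panc89 libraries the leading genes were HCAR2 again (0.991), FBLN1, which encodes the matrix protein fibulin (0.990), GRHL2, an epithelial transcription factor (0.987), CRABP2, a retinoic acid carrier (0.986), and HIP1, an endocytic adaptor (0.983). Of these, FBLN1, CRABP2 and HIP1 were also expressed in Panc1, at 6.17, 8.03 and 3.24 in parental cells, where SOX2 was near 0. They were lower in parental Panc89 than in parental Panc1 (log2 fold changes -1.33, -2.87 and -1.34), while HCAR2 (3.89) and GRHL2 (4.74) were higher. HIP1 averaged 2.73 TPM in parental, 3.33 in Holoclone and 0.62 in Paraclone cells of Panc89. It reached the minimum group mean for this ranking only in Panc1, with 11.4 TPM in Holoclone and 13.4 TPM in Paraclone cells.

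Of the 21 listed partners and targets of SOX2, 11 were tested. The pluripotency factors POU5F1 and NANOG were not among them, with at most 0.110 and 0.0550 TPM in any library. In Panc89 Holoclone against Paraclone cells 4 of the 11 were higher and 0 lower, with a median of 0.23 against 0.09 over all genes, of which 22.4% were higher and 13.3% lower. The 4 were TP63, a factor of basal epithelial cells that acts with SOX2 in squamous tissue (3.09), KLF4, a reprogramming factor (1.87), CCND1, a G1 cyclin (0.55), and MYC (0.52). In Panc1 5 were higher and 2 lower (median 0.34 against 0.19, beside 27.4% and 9.97% of all genes), led by NES, the intermediate filament nestin (2.21), CHD7, a chromatin remodeller (1.10), and SALL4, a stem cell zinc finger factor (0.80), with KLF4 (-1.77) and KLF5 (-1.36) lower. Between the lines the change differed for 7 of the 11, beside 14.8% of all genes higher and 20.4% lower, with 3 higher in Panc89, KLF4 (3.64), TP63 (3.43) and KLF5 (1.59), and 4 lower, led by NES (-2.19). In parental Panc89 against parental Panc1 cells 5 were higher and 3 lower (median 0.40 against -0.18, beside 27.5% and 38.5% of all genes), with KLF5 (5.57), TP63 (5.37) and KLF4 (3.99) at one end and NES (-6.21) at the other.

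The list of the SOX9 duct programme and SOX9 targets had 11 of 20 genes tested. CFTR and NKX6-1, genes of duct or progenitor cells, stayed at or below 0.560 and 0.473 TPM. In Panc89 Holoclone cells, where SOX9 was lower, 4 of the list were higher and 1 lower (median 0.37 against 0.09, beside 22.4% and 13.3% of all genes). FOXA2, a pioneer factor of the endoderm, rose by 4.76, FGFR2, a fibroblast growth factor receptor, by 2.83 and SPP1, osteopontin, by 2.02, while KRT7, a duct keratin, had -1.05. In Panc1, where SOX9 was not called between variants, 3 were higher, PDX1 (1.72), FGFR2 (1.35) and COL11A2 (0.65), and 2 lower, KRT19 (-2.48) and MIA (-2.11), with a median of -0.02 against 0.19, beside 27.4% and 9.97% of all genes. Parental cells of the lines differed in 9 of the 11, 5 higher in Panc89 and 4 lower (median -0.26 against -0.18, beside 27.5% and 38.5% of all genes), from KRT7 (7.04) to FOXA2 (-2.76).

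For the 9 targets and TGF-beta partners of SOX4 and SOX11, 8 were tested. Of these, 1 was higher and 4 lower in parental Panc89 (median -0.56 against -0.18, beside 27.5% and 38.5% of all genes). In Holoclone against Paraclone cells 1 was higher and 4 lower in Panc1 (median -0.43 against 0.19, beside 27.4% and 9.97%), and 1 higher and 3 lower in Panc89 (median -0.25 against 0.09, beside 22.4% and 13.3%). SMAD3, a TGF-beta signal mediator, and TUBB3, a neuronal tubulin, were lower in Panc89 Holoclone cells (-1.12 and -1.29), and TGFB1 was higher (0.55). Of 10 further SOX genes, 3 were tested, SOX8, SOX17 and SOX18, and SOX1, SOX10 and SOX14 were listed at 0 in every library. SOX17, an endoderm factor of the F subgroup, was higher in Panc1 Holoclone than Paraclone cells (1.57) and higher in parental Panc1 than parental Panc89 (-1.54). SOX18 was lower in Panc89 Holoclone than Paraclone cells (-1.12).

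The genes around SOX2 were compared, since SOX2 lies on a chromosome arm often gained in carcinomas. Besides SOX2 and SOX2-OT, 43 tested genes start within 3 Mb of it. In Panc1 Holoclone against Paraclone cells 29 of the 43 were higher and 1 lower, with a median of 0.63 against 0.19 over all genes, of which 27.4% were higher and 9.97% lower. With upper quartile scaling 20 were higher (median 0.40 against 0.01, beside 16.4% of all genes) and with median-of-ratios scaling 19 (median 0.37 against 0, beside 15.2%). The highest were PARL (1.45), a mitochondrial protease, LRRFIP1P1 (1.41), a pseudogene whose parent gene has a similar sequence, and KCNMB3 (1.28), a potassium channel subunit, and the lower gene was B3GNT5 (-1.20). Panc1 Paraclone against parental cells, a comparison that shares the Paraclone libraries, gave 1 higher and 25 lower (median -0.63 against -0.17, beside 7.31% and 21.3% of all genes). Panc1 Holoclone against parental cells gave 2 higher and 0 lower (median 0.12 against 0.01, beside 5.87% and 5.06%).

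In Panc89, where SOX2 was at 4.35, few neighbours were called. Between Holoclone and Paraclone cells 5 of the 43 were higher and 5 lower, with a median of -0.06 against 0.09, beside 22.4% and 13.3% of all genes. The split moved with the settings, to 4 higher and 9 lower with upper quartile scaling, 4 and 10 with median-of-ratios scaling, 5 and 8 without Holoclone replicate 1 and 9 and 7 without Paraclone replicate 2. LAMP3, a lysosomal membrane protein, was at 2.49 and MCF2L2 at -2.11. The Holoclone against Paraclone change was lower in Panc89 than in Panc1 for 25 of the 43 and higher for 1 (median -0.69 against -0.11, beside 20.4% lower and 14.8% higher of all genes). Between parental cells 25 were lower in Panc89 and 6 higher (median -0.53 against -0.18, beside 38.5% and 27.5%). Gene dosage was not measured, and its part in these counts was not tested.

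The labelled cell types were checked on marker genes. Epithelial markers were present in all groups. In parental Panc89 5 of 7 were higher and 1 lower, beside 27.5% and 38.5% of all genes, with CDH1 at 5.05 and KRT8 at -0.83. In Holoclone against Paraclone cells 0 were higher and 4 lower in Panc89 (median -0.65 against 0.09, beside 22.4% and 13.3% of all genes). The same comparison in Panc1 gave 3 higher and 3 lower (median -0.62 against 0.19, beside 27.4% and 9.97%). Mesenchymal markers summed to 2053 to 5181 TPM in Panc1 libraries and to 6.01 to 33.4 TPM in Panc89 libraries. Most of the Panc1 sum was VIM, at 2021 to 5044 TPM. In parental Panc89 1 of the 6 was higher, FN1 (1.91), and 3 were lower, VIM (-11.78), SPARC (-9.46) and ZEB1 (-4.11). This stands beside 27.5% higher and 38.5% lower of all genes, and CDH2 and ZEB2 were not called. Between Panc89 variants the mesenchymal sum was 8.15 to 14.4 TPM in Holoclone and 15.4 to 33.4 TPM in Paraclone cells. In these Holoclone cells 1 marker was higher, CDH2 (0.95), and 3 were lower, FN1 (-2.56), ZEB2 (-0.96) and ZEB1 (-0.95), beside 22.4% and 13.3% of all genes. In Panc1 Holoclone against Paraclone cells 2 were higher and 2 lower, beside 27.4% and 9.97%. Of the 5 fibroblast markers only COL1A1 was tested, and the other 4 stayed at or below 1.15 TPM, with COL1A2 and DCN, both defining for these cells, at most 0.172 and 0.145 TPM. The sum of all 5, COL1A1 included, was 6.77 to 10.5 TPM in Holoclone and 1.30 to 1.45 TPM in Paraclone cells of Panc1. It was 10.2 to 21.7 and 23.8 to 26.1 TPM in those of Panc89, and 12.5 to 14.6 and 20.6 to 27.3 TPM in parental Panc1 and Panc89. COL1A1 was higher in Holoclone than Paraclone cells of Panc1 (2.12) and lower in those of Panc89 (-0.72). It was higher in parental Panc89 than parental Panc1 (0.83), and all 3 differences were past the threshold. Of the 3 leukocyte markers only CD68, a lysosomal protein gene that also other cells express, was tested. It was lower in Holoclone than Paraclone cells of Panc1 (-1.15) and Panc89 (-1.20) and in parental Panc89 than parental Panc1 (-2.96), all past the threshold, while PTPRC and CD3E stayed at or below 0.956 and 0.0361 TPM. The part of these markers in the SOX results was not tested. In bulk RNA, fewer cells that express a gene and less RNA per cell cannot be told apart.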

How the data were processed

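The 18 libraries were assigned to line, cell variant and replicate from their labels, and 0 columns were left without a sample. The authors prepared stranded mRNA libraries from 3 passages of each variant, sequenced them as read pairs, quantified transcripts with kallisto 0.46.1 against Ensembl GRCh38 and imported scaled TPM with tximport. DESeq2 was used by the authors in their tests. The deposited values are log2(TPM + 1), 1 per gene symbol and library. Raised back, TPM summed to 985339 to 988066 per library. TPM keep no depth, so the counting error of a value is unknown.

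Differences were fitted with limma 3.58.1 and its trend option in R 4.3.3 (tables read with data.table, version 1.17.8), on 6 group means. Genes entered if 3 or more libraries held 1 TPM or more, which left 16093. The 2-sided p-values were adjusted over all of these genes by Benjamini-Hochberg, with a threshold of 0.05. The fit was tested on simulated data for Panc89 Holoclone against Paraclone cells. It called 154 of 200 changed genes, 59 of 92 with a log2 change of 1, and 8 unchanged genes, among 16093. Each simulated gene had the same SD in every group, so unequal spreads such as that of SOX2 were not tested. TPM in place of counts made limma the nearest fit to the study's own method. Alternatives were a pseudocount of 0.1, no filter, an added absolute log2 fold change over 1, upper quartile scaling, median-of-ratios scaling, a fit of the compared groups alone, the replicate number as a block and leaving out each library. Those for the SOX2 neighbours were chosen after seeing the data.

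The SOX genes and the gene lists were chosen with earlier results of these data known. All SOX genes are named, and of each list up to 3 highest and 3 lowest genes past the threshold and genes listed near 0. Genes most like SOX2 are the 5 with the highest Pearson's r among those with a group mean of at least 10 TPM. Positions come from GENCODE on GRCh38 and promoters from RefSeq on GRCh38.p14, where the windows of SOX2 and SOX21 were found by symbol.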

Additional observations from a re-analysis of the deposited data

Results flagged for a closer look

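In 4 SOX genes the difference between Holoclone and Paraclone cells was not the same in the lines, by the test of the interaction. The count of 3 higher and 1 lower in Panc89 among 10 members stands beside 14.8% higher and 20.4% lower of all genes tested. For SOX21 the Panc89 change exceeded the Panc1 change by 6.80 on the log2 scale (SE 0.56, adjusted p = 2.39e-07), with 3 of 3 Holoclone libraries below the Paraclone libraries in Panc1 and 3 of 3 above them in Panc89. For SOX2 it was 4.02 (SE 0.48, adjusted p = 1.04e-05), with Panc1 levels close to 0 in all libraries. SOX9 had -1.73 (SE 0.42, adjusted p = 0.00453) and SOX6 1.01 (SE 0.27, adjusted p = 0.00844), the last of which missed the threshold with a pseudocount of 0.1. Each variant is 1 clone, so a difference between lines cannot be told apart from a difference between clones.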

How the results depend on the processing

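Of the alternative counts of called SOX genes, 118 stayed within 1.5 times the reported count. The exceptions were as follows. Requiring also an absolute log2 fold change over 1 left 1 gene in Panc1 Holoclone against Paraclone cells, 0 in Panc1 Holoclone against parental, 1 in Panc1 Paraclone against parental and 3 in Panc89 Paraclone against parental cells. Median-of-ratios scaling gave 2 in Panc1 Holoclone against Paraclone cells, and 1 in Panc1 Paraclone against parental cells, as did upper quartile scaling and no filter. The replicate block gave 1 there as well and changed no other of these counts beyond 1.5 times; the numbers do not pair the libraries, since correlations of deviations within a line ran from -0.318 to 0.190 over 18 pairs, with 3 over 0.1. For Panc1 Holoclone against parental cells a pseudocount of 0.1 gave 2 and a fit of the groups alone 3, and for Panc89 Holoclone against parental cells such a fit gave 1. Leaving out 1 library gave 1 to 2 in Panc1 Paraclone against parental and 2 to 5 in Panc89 Holoclone against parental cells. The 29 SOX2 neighbours in Panc1 became 19 with median-of-ratios scaling.

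Of single fold changes, 859 kept direction and side of the threshold, 45 lost a call, 14 gained one and 18 changed sign. None of those that changed sign had been called. With median-of-ratios scaling SOX9 went to -0.14 (upper quartile scaling -0.11) in Panc1 Holoclone against Paraclone cells, SOX7 to -0.00358 in Panc89 and -0.0048 in the difference between lines, and with a pseudocount of 0.1 SOX15 to -0.0903 in that difference. Leaving out 1 library moved the parental difference of SOX2-OT over -0.0771 to 0.176 and of SOX4 over -0.63 to 0.14. In Panc1 Holoclone against Paraclone cells it moved SOX7 over -0.00872 to 0.0306 and SOX4 over -0.12 to 0.14, in Panc89 SOX12 over -0.00137 to 0.51, in the difference SOX7 over -0.00158 to 0.21, against parental Panc1 SOX21 over -0.24 to 0.27, and against parental Panc89 SOX2 over -0.14 to 0.77. The cause was not tested.

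With 3 passages of 1 clone per group, and no depth, levels near 0 are weakly determined: SOX2 between the Panc1 variants and SOX6 in the difference between lines changed sides of the threshold with a pseudocount of 0.1. SOX2 between the Panc1 variants did so also in a fit of those groups alone. In Panc1 Holoclone against parental cells SOX2 changed sides in 2 of 12 alternatives.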
